A study of Homo sapiens with 6 samples.

Results

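Ribosomes are built in the nucleolus, and the 47 genes described here encode proteins of that assembly line. They were listed by name for their known roles, with no measured value in the rule, and 46 of them were matched to a row of the count table, which holds 48162 genes. The exception, BOP1, was not matched and is not analysed here. The RNA came from SiHa cells, a long-established line from a human cervical carcinoma that carries papillomavirus DNA, grown in DMEM with serum. Cells received either si-CNN3 (the duplex si-CNN3#1, an siRNA against calponin 3) or si-NC, a control duplex, so both groups were transfected with an siRNA, and 3 samples of each group were sequenced. RNA was taken at 48 h; the labels place the change to fresh medium at 24 h, while the study's methods give an earlier time. Only 1 CNN3 duplex was sequenced, and each condition is represented by 1 cell line.

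In the nucleolus, RNA polymerase I copies the ribosomal DNA into a long precursor RNA. Small nucleolar ribonucleoproteins (snoRNPs) then modify this precursor, in which box C/D particles guide 2′-O-methylation and box H/ACA particles guide pseudouridine formation. Large complexes fold and cleave it into the RNAs of the small and the large ribosomal subunit, and export factors carry the maturing subunits to the cytoplasm. Cancer cells with strong growth usually have prominent nucleoli, and many genes of this pathway are known targets of the transcription factor MYC.

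RNA levels of this machinery were high and for the most part alike in the 2 groups. After CNN3 knockdown, 3 of the 46 genes were lower, namely NCL (nucleolin), UBTF (the upstream binding factor of RNA polymerase I) and NIP7 (a large subunit assembly factor), and 2 were higher, namely TAF1D (a subunit of the promoter factor SL1) and NMD3 (the export adaptor of the large subunit). The called changes were all small, between 80.1% (NCL) and 119% (TAF1D) of the control level. The other 41 genes did not pass the threshold, and their log2 fold changes ran from -0.15 to 0.11. These calls come from edgeR's quasi-likelihood test on the whole table with Benjamini-Hochberg adjustment over 15860 tested genes and a threshold of 0.05. Over all tested genes, 2111 (13.3%) passed the same threshold, against 5 of the 46 (10.9%), so the shares were close. Among tested genes whose mean level lay in the range of the 46, the share was 17.3%. The order of the 2 shares depended on the setting, with the 46 genes above the background in 11 of 18 alternatives (for example 8.70% against 8.41% with DESeq2, and 15.2% against 13.6% with total counts) and below it in 7.

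The siRNAs are shown first, because an siRNA can also act on RNAs that match bases 2 to 8 of its guide strand, the seed. Guide strands were derived from the sense strands given in the sample labels by reverse complement, without the overhanging T bases, and the capitals mark the seed.
si-CNN3#1 guide: uUUGUUGGuucccaucugc
si-NC guide: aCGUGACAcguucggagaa

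The site that pairs with the si-CNN3#1 seed, CCAACAA, was found in the 3′ UTR of 1 of the 46 genes (2.17%; POLR1C), against 9.98% of 12639 tested genes. The site of the si-NC seed, TGTCACG, was found in the 3′ UTR of 0 of the 46, against 3.38%. In coding regions the si-CNN3#1 site was found in 8 of the 46 genes (17.4%), against 17.2% of 12695 tested genes. These were NCL, DDX10, NOC2L, PES1, POLR1A, UTP4, WDR43 and WDR75, of which only NCL was called, beside 13.3% of all tested genes. The share called among all tested genes with such a site was not counted, and with 8 genes nothing is read from this count. The site of NCL, the member with the largest fold change, lies at bases 443 to 449 of the transcript NCL-201 and is shown with the site in capitals. Whether this site has a part in the lower level of NCL was not tested.
NCL coding region: tggtcgtttccCCAACAAaaaaggttgca

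The longest run of bases that any of these transcripts shared with the sense strand of si-CNN3#1 was 10 bases (in FBL, MRTO4, NIP7 and UTP4). For NCL it was 9 bases.

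CNN3 itself, an actin-binding protein and the target of si-CNN3#1, was counted 490, 514 and 574 times in the si-CNN3 samples and 1134, 1288 and 1234 times in the si-NC samples. Its normalised level with si-CNN3 was 50.9% of that with si-NC (log2 fold change -0.97, standard error 0.06, edgeR's quasi-likelihood test, adjusted p = 2.04e-20), and the groups did not overlap (two-sided exact permutation, p = 0.1, which is the lowest value possible for 3 against 3). Total counts on genes ran from 18147028 to 19026341 with si-CNN3 and from 20287139 to 24976517 with si-NC, so every si-NC sample was deeper. Of all genes, 978 (6.17%) were called higher and 1133 (7.14%) lower, so that 46.3% of the calls were higher, and scaling by total counts alone made this share 60.0%. Chi-square per degree of freedom between samples was 1.56 to 1.98 within a group and 4.16 to 5.45 between groups, so no sample repeated another. The epithelial keratins KRT8, KRT17 and KRT18 were abundant, at 531, 186 and 115 FPKM with si-NC, while KRT19 (6.72 FPKM) and EPCAM (5.45 FPKM) were low and KRT5 was near 0 (0.410 FPKM). With CDH1, whose own level is not given here, the 7 epithelial markers summed to 835 to 889 FPKM with si-NC and 794 to 857 FPKM with si-CNN3. Of the markers of other cell types, CD14, a monocyte marker, was the exception at 136 FPKM, and each of the other fibroblast, blood and endothelial markers was at 4.38 FPKM or less with si-NC. Summed over the list, the 5 blood markers were at 139 to 144 FPKM in the si-NC samples and 111 to 116 FPKM in the si-CNN3 samples, most of it CD14, and CD14 had a log2 fold change of -0.30 (adjusted p = 7.88e-10). The 5 fibroblast markers together were at 8.23 to 9.33 FPKM with si-NC and 8.56 to 9.11 FPKM with si-CNN3, and the 2 endothelial markers with a row summed to at most 0.402 FPKM. The part of these markers in the results was not tested.

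FPKM, which scales counts by gene length and by library size, allows levels to be compared between genes. With si-NC the 46 genes ran from 2.08 FPKM (RRP12, a small subunit export factor) to 965 FPKM (NPM1, nucleophosmin), with a median of 56.3 FPKM against 12.4 FPKM over all tested genes. The next levels below NPM1 were those of NCL (555 ± 4.73 FPKM, SD, n = 3), the box C/D core protein NOP56 (288 ± 9.33 FPKM), the methyltransferase FBL (222 ± 7.73 FPKM) and the box C/D core protein NOP58 (208 ± 7.27 FPKM). On the FPKM scale FBL and NOP58 overlapped in their spread, while NPM1, NCL and NOP56 stood apart from their neighbours. At the lower end, RRP12 (2.08 ± 0.370 FPKM), the U3 snoRNP protein RRP9 (3.45 ± 0.180 FPKM) and the large subunit factor RRP1 (5.06 ± 0.396 FPKM) had the fewest reads per length. Together the 46 genes took between 0.566% and 0.586% of all counts on genes in each of the 6 samples, with 0.566%, 0.571% and 0.578% for si-CNN3 and 0.573%, 0.571% and 0.586% for si-NC. The ranges of the 2 groups overlapped, so the genes as a whole took a like share of the counts in both. In RNA from whole cultures, fewer cells that express a gene and less of its RNA per cell cannot be told apart.

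**Figure D1:**
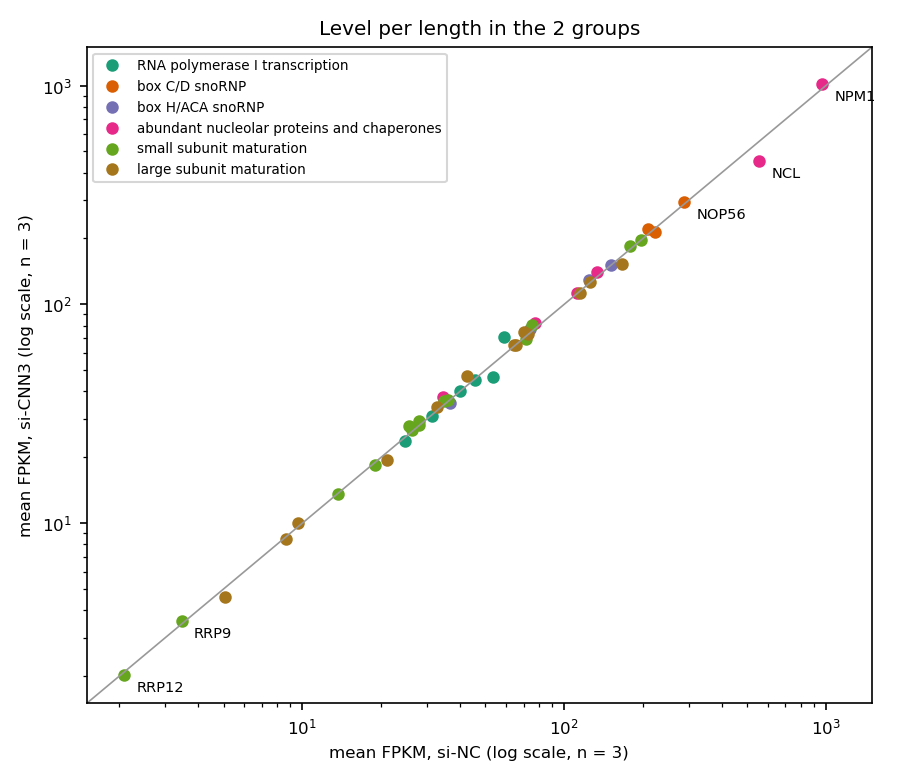
Mean FPKM of each of the 46 genes with si-NC (horizontal, log scale) against si-CNN3 (vertical, log scale), n = 3 per group, coloured by role, with the line of equal levels. The points follow the line from RRP12 at 2.08 FPKM to NPM1 at 965 FPKM, and NCL lies visibly below it.

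Ordered by role, the calls fell on RNA polymerase I transcription (1 higher and 1 lower of 6 genes), the abundant nucleolar proteins (1 lower of 6) and large subunit maturation (1 higher and 1 lower of 13). No box C/D (3 genes), box H/ACA (4 genes) or small subunit (14 genes) member passed the threshold. Over all tested genes 13.3% passed, and with 3 to 14 genes in a role nothing is read from where the calls fell. Of the 46 log2 fold changes, 20 were above and 26 below 0, with a median of -0.0063 beside 0.0023 over all tested genes.

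**Figure D2:**
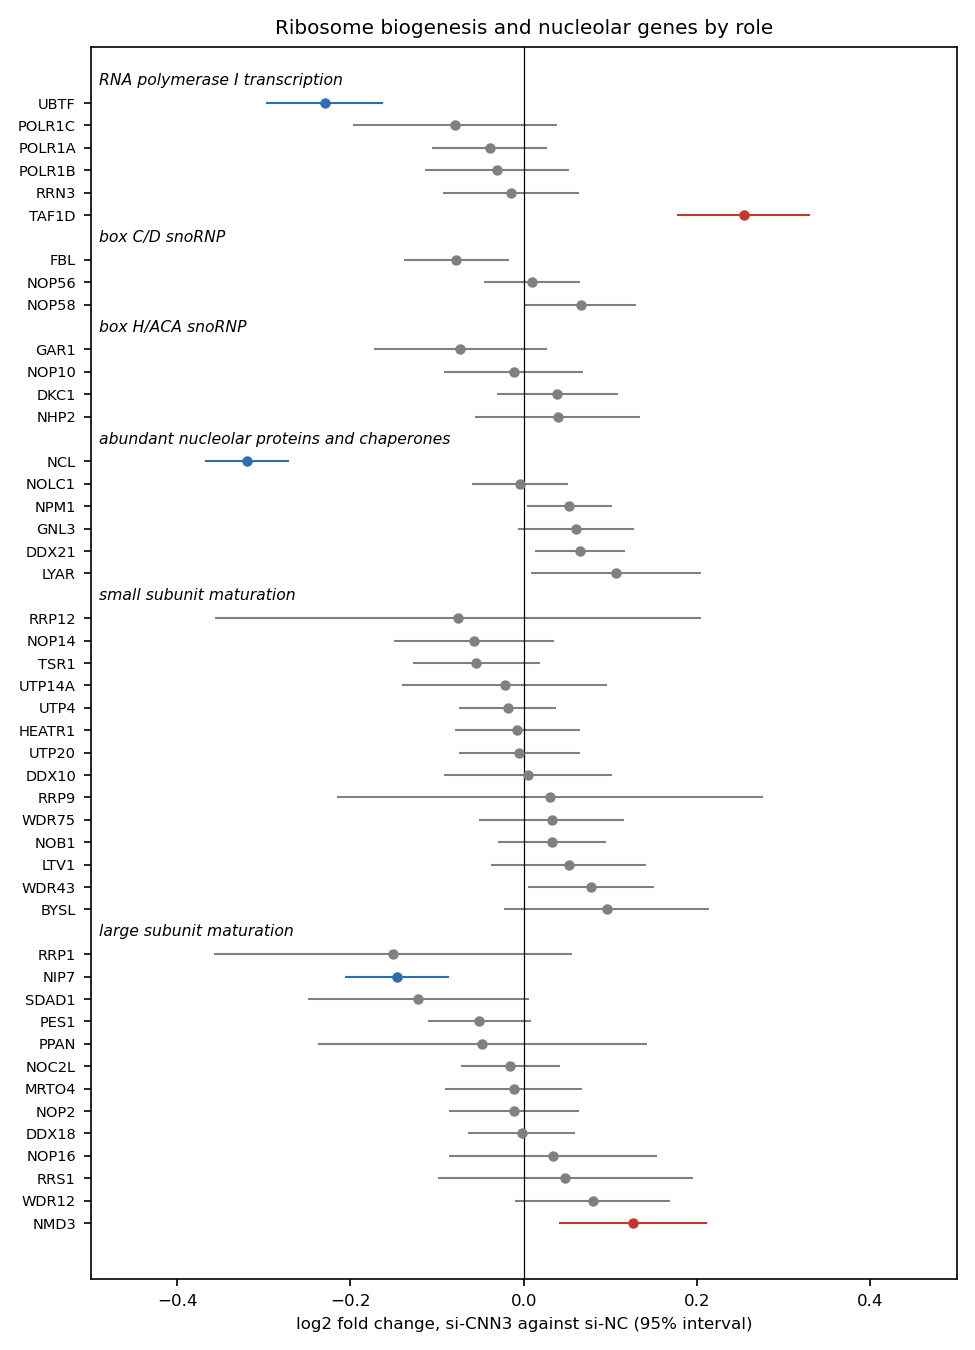
Log2 fold change of si-CNN3 against si-NC for the 46 genes, grouped by role, from edgeR's fit, with 95% intervals as bars. Blue points passed the adjusted threshold as lower (NCL, UBTF, NIP7), red points as higher (TAF1D, NMD3) and grey points did not pass.

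NCL (ENSG00000115053, GRCh38 chr2:231453531-231483641, minus strand) encodes nucleolin, an abundant RNA-binding protein that takes part in the transcription and the early folding of the ribosomal RNA precursor. The reads counted on it numbered 11368, 11845 and 10982 with si-CNN3 against 15127, 18777 and 16489 with si-NC. Its normalised level, in counts scaled to a common library size (CPM, with TMM factors), was 603, 617 and 601 CPM with si-CNN3 and 754, 754 and 764 CPM with si-NC. All 3 si-CNN3 samples lay well below all 3 si-NC samples. The means were 607 ± 8.46 and 758 ± 5.91 CPM (SD, n = 3 each), or 80.1% of control, with a log2 fold change of -0.32 (standard error 0.02, 95% interval -0.37 to -0.27, edgeR, adjusted p = 1.9e-15). NCL passed the threshold in 18 of the 18 alternative settings, with log2 fold changes from -0.33 to -0.30.

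NPM1, nucleophosmin, is another abundant nucleolar protein and acts as a chaperone for ribosomal proteins and histones. It had 826, 809 and 838 CPM with si-CNN3 and 787, 794 and 804 CPM with si-NC. All si-CNN3 samples lay above all si-NC samples, but by little, and the difference did not pass (log2 fold change 0.05, standard error 0.02, edgeR, adjusted p = 0.157). The ratio of NCL to NPM1 counts within each library needs no scaling between libraries, and it was 0.730, 0.762 and 0.718 with si-CNN3 and 0.958, 0.950 and 0.951 with si-NC. NCL thus fell relative to NPM1 in each si-CNN3 library, by more than the spread of either group. This ratio restates the values of both genes and is not a further test. Counts on genes annotated as NCL pseudogenes were at most 0.455% of those on NCL, and for NPM1, with 45 such genes, at most 0.298%.

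The other abundant nucleolar proteins did not pass. DDX21, an RNA helicase that couples RNA polymerase I transcription to processing, was at 389, 384 and 379 CPM with si-CNN3 and 365, 361 and 375 CPM with si-NC, without overlap (log2 fold change 0.07, standard error 0.03, edgeR, adjusted p = 0.0893). LYAR, a nucleolar growth regulator, also lay without overlap on the higher side (log2 fold change 0.11, standard error 0.05, adjusted p = 0.155). NOLC1, which binds snoRNPs, and GNL3, nucleostemin, overlapped between the groups.

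UBTF (ENSG00000108312, chr17:44205033-44221626, minus strand) binds the ribosomal DNA promoter and keeps active gene copies open. Its level was 100, 102 and 97.2 CPM with si-CNN3 and 115, 120 and 116 CPM with si-NC, so the highest si-CNN3 sample stood below the lowest si-NC sample. The means were 99.7 ± 2.33 and 117 ± 2.78 CPM (SD, n = 3 each), with a log2 fold change of -0.23 (standard error 0.03, edgeR, adjusted p = 5.99e-07). TAF1D (ENSG00000166012, chr11:93729948-93784391, minus strand) went the other way, with 81.5, 83.4 and 88.9 CPM with si-CNN3 against 70.4, 71.5 and 70.8 CPM with si-NC. The si-CNN3 samples were more spread out but all above the si-NC samples. Its means were 84.6 ± 3.89 and 70.9 ± 0.550 CPM (SD, n = 3 each), with a log2 fold change of 0.25 (standard error 0.04, edgeR, adjusted p = 1.04e-06). UBTF and TAF1D both passed in 18 of the 18 alternative settings.

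The catalytic subunits of RNA polymerase I did not pass. POLR1A, the largest subunit, had 110, 110 and 106 CPM with si-CNN3 and 112, 113 and 109 CPM with si-NC, which overlapped (log2 fold change -0.04, standard error 0.03, edgeR, adjusted p = 0.512). POLR1B, the second largest subunit, and POLR1C, a subunit shared with RNA polymerase III, had log2 fold changes of -0.03 and -0.08 (adjusted p = 0.718 and 0.442). RRN3, which brings the polymerase to the promoter, had one of -0.01 (adjusted p = 0.865), a value whose sign turned under total-count scaling, and counts on its annotated pseudogenes came to as much as 35.9% of its own, so its level is uncertain. Within each library the ratio of UBTF to POLR1A counts was 0.912, 0.929 and 0.917 with si-CNN3 and 1.02, 1.06 and 1.06 with si-NC. The ratio of TAF1D to UBTF counts was 0.815, 0.819 and 0.915 against 0.614, 0.596 and 0.610. Neither ratio overlapped between the groups. Both restate the values above without scaling between libraries and are not further tests.

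Part of the exons of TAF1D are shared with genes on the opposite strand, and whether reads were counted by strand is not given in the sources used here. With CEP295, a centrosomal protein, TAF1D shares 250 bases, and CEP295 was called higher as well (log2 fold change 0.18, adjusted p = 0.00312). MED17 and C11orf54 share 88 and 173 bases and were not called. UBTF shares 216 and 37 bases with 2 antisense genes that had at most 127 counts in a sample, against at least 1775 for UBTF. Reads in these shared stretches cannot be told apart between the partners.

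**Figure D3:**
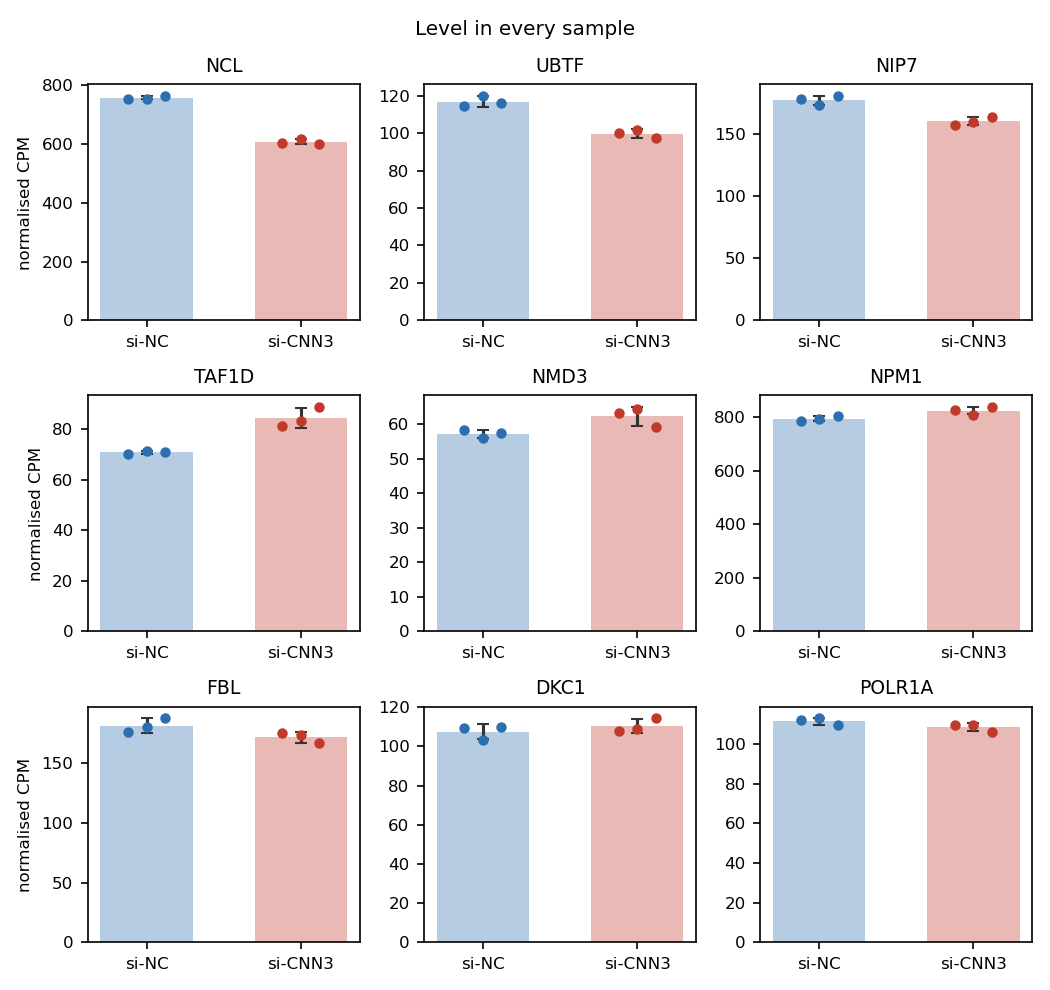
Normalised CPM in each sample for 9 of the genes (blue si-NC, red si-CNN3), with bars for the group mean and lines for the SD (n = 3), each panel starting at 0. NCL, UBTF and NIP7 lie lower with si-CNN3 and TAF1D and NMD3 higher without overlap, while NPM1, FBL, DKC1 and POLR1A differ by little and did not pass the threshold.

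Among the snoRNP proteins, the box C/D methyltransferase FBL (fibrillarin) was at 175, 173 and 167 CPM with si-CNN3 and 176, 180 and 188 CPM with si-NC. The groups did not overlap, yet the nearest samples were almost level (log2 fold change -0.08, standard error 0.03, edgeR, adjusted p = 0.0813). NOP56 and NOP58, which form the scaffold of the same particle, had log2 fold changes of 0.01 and 0.07 (adjusted p = 0.881 and 0.187), and both overlapped. DKC1, the pseudouridine synthase dyskerin, was at 108, 109 and 115 CPM with si-CNN3 and 110, 103 and 110 CPM with si-NC (log2 fold change 0.04, standard error 0.03, adjusted p = 0.541). Of the other 3 core proteins of the box H/ACA particle, NHP2 and NOP10 overlapped, with log2 fold changes of 0.04 (adjusted p = 0.676) and -0.01 (adjusted p = 0.901, of changing sign across settings). GAR1 was at 37.5, 36.2 and 37.0 CPM with si-CNN3 and 38.7, 38.5 and 39.3 CPM with si-NC. Its groups did not overlap, and it did not pass (log2 fold change -0.07, standard error 0.05, adjusted p = 0.392). Over the 7 snoRNP genes the log2 fold change thus ran from -0.08 (FBL) to 0.07 (NOP58).

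Several of these genes are hosts of snoRNAs, which in humans are mostly released from spliced introns. GENCODE places 36 snoRNA or scaRNA genes inside 10 of the 46 genes, with 8 in TAF1D, 6 in GNL3, 5 in NOP56, 4 in NOP58 and 3 each in NCL and WDR43. Only 2 of the 36, both in NOP56, had a row in the count table, and both were at 0 counts in all samples. Annotated exons of some host transcripts cover part of them, including 7 of the 8 in TAF1D and all 5 in NOP56 but none in NCL, and reads from a snoRNA and from such an exon cannot be told apart there. The 10 hosts included 1 gene called higher (TAF1D) and 1 called lower (NCL) and had a median log2 fold change of 0.02, beside -0.01 for the other 36. The other 36 included 1 called higher and 2 called lower. Over all tested genes 13.3% were called, and with 10 hosts nothing is read from these counts.

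None of the 14 genes of small subunit maturation passed the threshold, beside 13.3% of all tested genes. Their log2 fold changes ran from -0.08 to 0.10. The group holds proteins of the processome that cleaves the early precursor (UTP4, WDR43, WDR75, HEATR1, UTP14A, UTP20, RRP9, NOP14, DDX10) and factors of late maturation and export (RRP12, BYSL, LTV1, TSR1, NOB1). WDR43, a processome subunit, was at 84.1, 86.2 and 88.7 CPM with si-CNN3 and 82.9, 81.4 and 81.3 CPM with si-NC, without overlap, and did not pass (log2 fold change 0.08, standard error 0.04, edgeR, adjusted p = 0.162). NOP14 lay without overlap on the lower side (log2 fold change -0.06, standard error 0.05, adjusted p = 0.480), and the other 12 overlapped. RRP12 and RRP9 were the least precise, since RRP12 had only 76 to 145 counts in a sample and RRP9 had 91 to 128. Their log2 fold changes were -0.08 and 0.03 with standard errors of 0.14 and 0.12, and the sign of each turned when 1 library was left out.

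Listed under large subunit maturation, NIP7 (ENSG00000132603, chr16:69337996-69343111, plus strand) takes part in the processing of the ribosomal RNA precursor. It was at 157, 159 and 163 CPM with si-CNN3 and 178, 173 and 180 CPM with si-NC. Each si-CNN3 sample was below each si-NC sample. The means were 160 ± 3.18 and 177 ± 3.55 CPM (SD, n = 3 each), with a log2 fold change of -0.15 (standard error 0.03, edgeR, adjusted p = 0.000257). NIP7 shares 957 of its 4749 GENCODE exon bases with COG8, a Golgi protein gene on the opposite strand. COG8 was called lower by nearly the same amount (log2 fold change -0.14, edgeR, adjusted p = 0.00576). The gene length behind the NIP7 FPKM values was 1055 bases, so how much of the shared stretch was counted is not known. Whether shared reads have a part in either change was not tested. NIP7 passed in 17 of the 18 alternative settings and missed in the unfiltered limma test of log2(FPKM + 1) values (adjusted p = 0.0555).

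NMD3 (ENSG00000169251, chr3:161104696-161253532, plus strand) gave the weakest of the 5 calls. It had 63.2, 64.6 and 59.3 CPM with si-CNN3 and 58.3, 55.9 and 57.4 CPM with si-NC, so that the lowest si-CNN3 sample was close to the highest si-NC sample. The means were 62.3 ± 2.75 and 57.2 ± 1.23 CPM (SD, n = 3 each), with a log2 fold change of 0.13 (standard error 0.04, edgeR, adjusted p = 0.0381). The call passed in 11 of the 18 alternative settings. It was lost without si-CNN3 replicate 1 (adjusted p = 0.121), si-CNN3 replicate 2 (adjusted p = 0.199), si-NC replicate 2 (adjusted p = 0.163) or si-NC replicate 3 (adjusted p = 0.0880), with DESeq2 (adjusted p = 0.193), with no filter on low counts (adjusted p = 0.0776) and in the unfiltered limma test (adjusted p = 0.130).

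PES1 and WDR12 form, with BOP1, the complex that is required for maturation of the large subunit RNAs. They had log2 fold changes of -0.05 and 0.08 (standard errors 0.03 and 0.04, edgeR, adjusted p = 0.292 and 0.267) and, although neither passed, their groups did not overlap and they lay on opposite sides. PES1 shares 246 exon bases with TCN2, a vitamin B12 carrier gene on the opposite strand, which was called higher from a low level of 7 to 34 counts. RRP1 was read 159, 140 and 129 times with si-CNN3 against 168, 195 and 198 times with si-NC, and its log2 fold change of -0.15 had a standard error of 0.10 (adjusted p = 0.389). The same size of change that passed for NIP7 thus did not pass for RRP1 at its lower depth. The RNA methyltransferase NOP2, the helicase DDX18, and NOP16, RRS1, MRTO4, SDAD1, PPAN and NOC2L, all assembly factors of the large subunit or its precursors, overlapped between the groups.

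For the 41 genes that did not pass, the intervals say how large a change could have gone unseen. In 38 of them the whole 95% interval lay within a log2 fold change of 0.25 in either direction, that is within an increase of 18.9% or a decrease of 15.9%. The 3 exceptions were RRP12, RRP9 and RRP1, the 3 genes of lowest level. Of the 41, 6 had an unadjusted p under 0.05. With the called genes this made 11 of the 46, beside 3978 of the 15860 tested genes. The 20 genes given here without a value of their own had log2 fold changes from -0.12 to 0.10 and adjusted p from 0.228 to 0.975. The groups did not overlap in 14 of the 46 genes, 7 higher and 7 lower with si-CNN3, beside 13.9% of all tested genes higher and 14.3% lower. These 14 included the 5 called genes, and the share of 7 in 46 in each direction is close to the background.

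Promoter sequences are given because many ribosome biogenesis genes are known to carry an E-box, the CACGTG element to which MYC and its partner MAX bind, or an ETS element. RefSeq promoters (GRCh38.p14, 250 bases before to 50 after the start) were matched for 41 of the 46 genes. The E-box CACGTG was present in 14 of these 41 (34.1%), against 7.26% of all 35116 promoters and 10.2% of those of 10570 tested genes. The ETS element CCGGAAG, on either strand, was present in 15 (36.6%), against 10.3% and 18.6%, and TATAAA in 2 (4.88%), against 11.5% and 5.78%. A match is only a stretch of letters in the window, and no factor binding was measured. FBL and NOP10 are shown as promoters with both elements, and NCL and TAF1D as those of the gene with the largest decrease and the gene with the largest increase among the members. Capitals mark E-boxes and ETS elements, and CTTCCGG is the ETS element on the other strand. The windows are chr19:39846330-39846629, chr15:34343087-34343386, chr2:231464435-231464734 and chr11:93741446-93741745, in that order, all minus strand.
FBL promoter: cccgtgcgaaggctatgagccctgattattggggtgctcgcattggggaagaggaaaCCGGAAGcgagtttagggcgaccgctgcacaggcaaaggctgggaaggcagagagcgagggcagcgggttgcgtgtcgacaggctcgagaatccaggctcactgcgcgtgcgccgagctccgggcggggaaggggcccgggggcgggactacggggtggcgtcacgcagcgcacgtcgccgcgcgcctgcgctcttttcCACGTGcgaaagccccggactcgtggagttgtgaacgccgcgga
NOP10 promoter: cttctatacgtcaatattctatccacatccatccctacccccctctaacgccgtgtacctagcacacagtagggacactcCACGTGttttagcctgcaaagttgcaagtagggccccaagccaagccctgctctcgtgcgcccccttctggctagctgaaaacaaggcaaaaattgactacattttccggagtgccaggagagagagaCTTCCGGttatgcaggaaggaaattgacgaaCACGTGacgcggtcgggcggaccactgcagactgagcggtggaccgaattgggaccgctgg
NCL promoter: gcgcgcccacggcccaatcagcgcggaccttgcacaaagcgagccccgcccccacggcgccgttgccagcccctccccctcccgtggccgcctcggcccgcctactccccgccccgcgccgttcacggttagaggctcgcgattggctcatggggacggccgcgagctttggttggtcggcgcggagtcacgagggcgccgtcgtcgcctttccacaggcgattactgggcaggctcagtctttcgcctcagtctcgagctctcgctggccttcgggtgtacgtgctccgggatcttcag
TAF1D promoter: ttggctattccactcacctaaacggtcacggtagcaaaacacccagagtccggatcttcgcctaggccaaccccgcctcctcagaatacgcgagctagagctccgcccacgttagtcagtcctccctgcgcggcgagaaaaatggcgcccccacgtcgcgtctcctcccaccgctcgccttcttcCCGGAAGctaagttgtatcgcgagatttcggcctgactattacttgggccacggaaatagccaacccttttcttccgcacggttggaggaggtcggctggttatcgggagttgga

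NOP10 has an E-box at bases 81 to 86 and another at bases 240 to 245 of its window, and FBL has 1 at bases 257 to 262, just after the start. None of the 14 genes with an E-box was among the 5 called genes, beside 172 called of 1076 tested genes with an E-box (16%), and with 14 genes nothing is read from this count. Their median log2 fold change was -0.01, beside 0.0049 for the 27 without one. Of the called genes, NIP7 and TAF1D have an ETS element, and NCL, UBTF and NMD3 have neither element in the window.

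The wider pathway was followed with 111 further ribosome biogenesis genes, all tested. Of these 8 passed (7.21%, against 13.3% of all tested genes), 7 lower and 1 higher, and the median over the 111 was -0.0066 (log2 fold change). PDCD11, a large scaffold of the small subunit processome, fell to 90.3 ± 1.43 from 110 ± 3.42 CPM (SD, n = 3 each; log2 fold change -0.29, edgeR, adjusted p = 4.66e-09). PELP1 and WDR18, partners in the complex that matures the internal spacer of the large subunit precursor, were both lower (log2 fold changes -0.22 and -0.21, edgeR, adjusted p = 2.37e-07 and 0.000142). TEX10, LAS1L and SENP3, which also take part in this step, did not pass (log2 fold changes 0.01, 0.01 and 0.12, edgeR, adjusted p = 0.877, 0.931 and 0.185). NOP53 and MAK16, 2 further large subunit factors, were lower by log2 fold changes of -0.23 and -0.34 (adjusted p = 2.84e-07 and 0.000465). Of 14 genes of the nuclear exosome, which trims the precursor, 2 passed (14.3%, close to the 13.3% of all tested genes). These were EXOSC5 (-0.28, edgeR, adjusted p = 0.000346) and the cofactor C1D (-0.29, edgeR, adjusted p = 0.00176), both lower. Of the 14 log2 fold changes, 9 were above and 5 below 0, with a median of 0.03. EIF6, which keeps immature large subunits from joining small ones, was the one higher gene (log2 fold change 0.14, adjusted p = 0.0451), and its samples overlapped between the groups. None of 9 other RNA polymerase I genes and none of 9 other snoRNP genes passed.

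Of 22 genes of RNA polymerase III, which makes the 5S ribosomal RNA, 1 passed (4.55%, against 13.3% of all tested genes). This was MAF1, a repressor of that polymerase, at 159 ± 5.11 against 143 ± 3.67 CPM (log2 fold change 0.15, edgeR, adjusted p = 0.000445). Of 16 genes of the MYC network and of nucleolar stress, 6 passed (37.5%, against the same 13.3%), 3 higher and 3 lower. MYC was at 125, 118 and 116 CPM with si-CNN3 and 141, 131 and 136 CPM with si-NC, without overlap, and passed as lower (log2 fold change -0.18, standard error 0.03, edgeR, adjusted p = 5.03e-05). CDKN1A, the cell cycle inhibitor p21, was higher with 142, 130 and 138 CPM against 117, 108 and 107 CPM (log2 fold change 0.30, adjusted p = 1.79e-09). MDM2, a ubiquitin ligase that binds ribosomal proteins, did not pass (log2 fold change 0.09, adjusted p = 0.139). The members of this list thus moved in both directions.

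The products that the pathway assembles were set beside it. Of 84 cytosolic ribosomal protein genes tested, 21 passed (25%, against 13.3% of all tested genes), 8 higher and 13 lower. Their median standard error was 0.026, against 0.066 over all tested genes, so smaller changes could pass in this list. By size, 79 of the 84 had an absolute log2 fold change under 0.25, against 13437 of the 15860 tested genes. The higher share that passed is therefore not read as larger change. The median log2 fold change of the 84 genes was -0.0087, and the list includes RPLP1, which the study chose partly on these samples. Of 75 mitochondrial ribosomal protein genes, which serve a separate ribosome, 6 passed (8%), 5 higher and 1 lower, with a median of 0.04 and 59 of 75 above 0. MRPL33, a protein of the large mitochondrial subunit, was one of the higher genes (41.3 ± 1.55 against 31.8 ± 2.37 CPM, log2 fold change 0.38, adjusted p = 2.81e-07). The medians of the ribosome biogenesis genes, listed and further, lay within 0.01 of 0 like that of all genes.

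**Figure D4:**
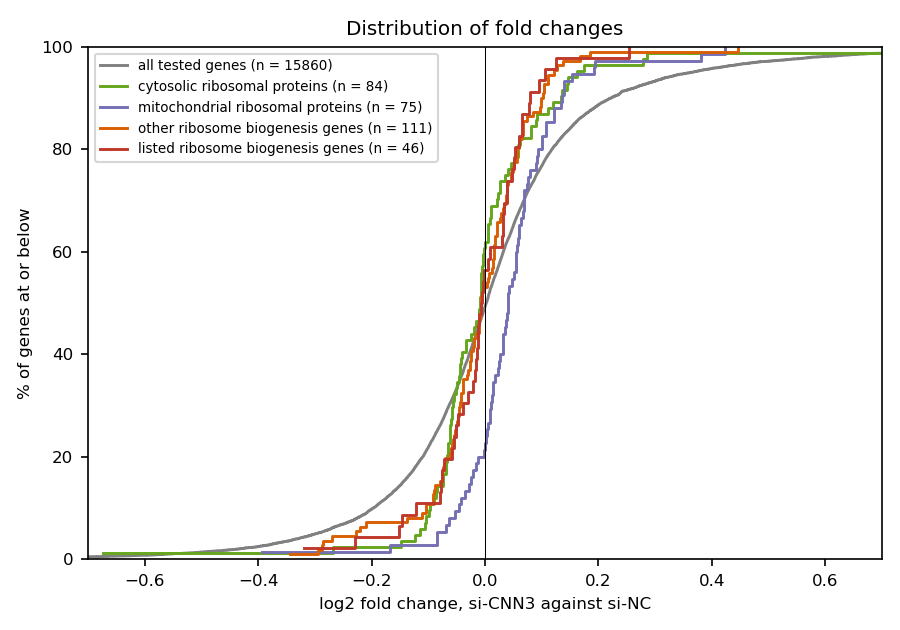
Percentage of genes (vertical) with a log2 fold change of si-CNN3 against si-NC at or below the value on the horizontal axis, for the 46 listed genes, 111 further ribosome biogenesis genes, 84 cytosolic and 75 mitochondrial ribosomal protein genes and all 15860 tested genes; the few values beyond the axis are not drawn. The curves of the ribosome biogenesis genes cross 0 near their middle and are steeper than that of all genes, and the mitochondrial curve lies to the right, with a median of 0.04.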

How the data were processed

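SiHa cells with si-CNN3 or si-NC were sequenced in 3 independent assays per group, per the study's methods. The authors screened the reads and aligned them with TopHat2 (submitters' processing notes: TopHat2 2.0.9, Bowtie2 2.0.6, with HTSeq and DESeq 1.10.1 also named). Unnormalised read counts for each Ensembl gene were deposited for all samples. FPKM values, deposited by the authors beside them, equal counts divided by gene length and sample total and add no further measurement. Genome build, annotation and strand setting are not given in the sources used here. Names and coordinates come from GENCODE 29 (GRCh38), which named 45342 of 48162 genes and left 2820 unnamed.

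Counts were tested with edgeR 4.0.16 in R 4.3.3 (TMM, filterByExpr, quasi-likelihood, group as the single model term), and p-values were adjusted by Benjamini-Hochberg over all 15860 tested genes and a threshold of 0.05. The smallest total was 18147028 counts. Standard errors are the absolute log2 fold change over the square root of F. Alternatives were other normalizations and filters, DESeq2 1.42.0, limma 3.58.1 with a pseudocount of 1 or 0.1 on log2 FPKM, a replicate block, leaving out each sample, thinning counts to the smallest total, and a loess correction on gene length.

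The genes and lists were chosen with earlier results of these data known. Any of the genes could be named, and values per sample were given for those called and for POLR1A, UBTF, FBL, DKC1, NCL and NPM1, with others where groups did not overlap; of further pathway genes the 8 called, and of neighbouring lists MYC, MDM2, CDKN1A and at most 3 called genes each, were named. Overlapping neighbours and cell type markers were also named, and RRP1, RRP9 and RRP12 were singled out for their low counts after their values were seen. TEX10, LAS1L and SENP3 were likewise named beside PELP1 and WDR18 after their values were seen. Seed sites were searched in GENCODE 29 transcripts and motifs in RefSeq promoters.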

Additional observations from a re-analysis of the deposited data

How the results depend on the processing

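NCL, UBTF and TAF1D passed in all 18 alternatives to the edgeR test, NIP7 in 17 and NMD3 in 11. Of the 46 genes, 5 passed in the test as reported, 8 with the replicate block and 3 in the unfiltered limma test of log2(FPKM + 1). Those called higher numbered 2 as reported, 4 with total counts only and with the replicate block, 1 with DESeq2, with no filter on low counts and in the unfiltered limma test, and 1 to 2 when a sample was left out. Total counts added DDX21 and NPM1, thinning to the smallest total and the loess correction each added FBL, and leaving out si-CNN3 replicate 1 added SDAD1. Of the 111 further genes, 8 passed as reported, 13 with the block and 3 in the unfiltered limma test. Over the neighbouring lists 34 passed, against 53 with the block and 9 in the unfiltered limma test. Over all genes 2111 passed, against 1073 with DESeq2, 1363 and 1353 with limma on genes of mean FPKM 1 or more (pseudocount 1 and 0.1), and 585 in the unfiltered limma test. The causes were not tested.

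The median log2 fold change of the 46 genes lay between -0.022 and 0.012 over the alternatives and changed sign among them. Signs were followed for the 26 genes whose fold change is given, and those that turned belonged to 5 genes that did not pass in any alternative. RRN3 was at 0.0025 with total counts, 0.00052, 0.00051 and 0.00052 in the 3 limma settings, 0.0063 after thinning and -0.047 to 0.022 with a sample left out. NOP10 was at 0.0058 with total counts, 0.0040 in each limma setting and -0.064 to 0.015 with a sample left out. NOP56 was at -0.0038 with the length correction and -0.021 to 0.024 with a sample left out. RRP9 ran from -0.046 to 0.10 and RRP12 from -0.23 to 0.076 over the same omissions, each with the other sign without si-CNN3 replicate 2 or si-NC replicate 2.

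Whether the replicate numbers shared by the groups pair the samples is not settled here. Deviations of same-numbered samples correlated at only 0.016, 0.047 and 0.026, yet each si-CNN3 sample correlated best with the si-NC sample of its own number. The block added DDX21, FBL and NPM1 to the calls, and over all genes 2727 passed with it, against 2111 as reported. Depth limits RRP12, RRP9 and RRP1, with 76 to 198 counts per sample. With 3 samples a group from 1 cell line and 1 CNN3 duplex, effects of the duplex itself cannot be told apart from those of the knockdown.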
